A study of Cervus nippon with 12 samples.

Results

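miR-22 was listed in the antler cell libraries as 2 names, bta-miR-22-3p and bta-miR-22-5p, out of 545 listed names, of which 475 carry a cattle (bta-) prefix. The names were chosen by their spelling, with the number 22 exact and any arm suffix allowed. The measured values that entered this choice were the reads of bta-miR-3600, a further name that was left out because its reads equal those of miR-22-3p. In all 12 libraries the difference between these names was 0 reads, from 1621 reads in the lowest library to 21883 in the highest. The files therefore do not say how the reads were shared between the names, and the level of miR-22-3p stands for both. A fixed way of sharing them would shift the log2 ratio of the arms by the same amount in every library. Among listed names with at least 10 reads in some library, 3 pairs had equal reads throughout. Other pairs, such as let-7b and miR-3596, were equal or near equal in mean level in CP_0, CP_7 and CP_14. In the shares of miRNAs called below, each name counts on its own.

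The cells came from the growing antler of adult male sika deer and are labelled wild type. Reserve mesenchyme cells (RMCs), the stem cells of the antler tip, were pelleted in centrifuge tubes and induced to form cartilage, and were sequenced at its start (CP_0, day 0) and after 7 and 14 days of it (CP_7 and CP_14). Antler chondrocytes (CC) formed the fourth group, and each of the 4 groups had 3 libraries. The methods call the replicates of each tissue type biological, and the labels do not say which deer a library came from.

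A microRNA hairpin is cut into a duplex whose strands are named 5p and 3p after the arm they come from. Usually a single strand is loaded onto an Argonaute protein and kept, while the partner is degraded. miR-22 is expressed in many tissues and its 3p strand is the better known. Among its known targets is HDAC4, a deacetylase that restrains hypertrophy of chondrocytes and of heart muscle. In articular chondrocytes it has been linked to PPARA and BMP7. Cattle names are used here for deer reads.

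The libraries differed in depth and in composition. The CP_7 libraries were the shallowest, with 539455 to 1032029 reads, and those of CC the deepest, with 9714090 to 10256572, while the others had 2791559 to 4097304. In CP_7 miR-21-5p took 23.2% ± 1.6 (SD, n = 3) of the reads, against 60.3% ± 1.2 at the start, 48.2% ± 4.9 in CP_14 and 75.2% ± 2.0 in chondrocytes, which changes the share left for every other miRNA. Values are given as deposited, in reads per 1000000 reads on listed miRNAs (RPM), and after TMM normalization, which sets a composition factor for each library from the bulk of the miRNAs. The mean factor ran from 0.60 ± 0.046 in CC to 1.92 ± 0.21 in CP_7. Tests of level used limma on the log2 of TMM-normalized RPM + 1 for every miRNA that passed a filter on low reads, and a miRNA was called at an adjusted p below 0.05. In each of the 6 comparisons the factors were set on its own 6 libraries. A log2 difference on this scale understates the change of a miRNA with few reads. In such bulk libraries fewer cells that hold a miRNA and less of it per cell cannot be told apart.

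The balance of the miR-22 arms set the CP_7 libraries apart from all others. The 5p arm held 3.60%, 3.28% and 3.05% of the miR-22 reads in the CP_0 libraries. It held 12.3%, 12.1% and 13.0% in CP_7. The share was 3.63%, 3.50% and 3.30% in CP_14 and 3.45%, 3.80% and 3.86% in CC. Every CP_7 library was above each of the other 9 libraries, and the other groups overlapped each other. The lowest lower bound of the 95% Wilson intervals in CP_7 was 11.0%, and the highest upper bound among the other 9 libraries was 4.12% (counting error only). For each 5p read there were 7.01 ± 0.31 (SD, n = 3) reads of the 3p arm in CP_7, against 29.3 ± 2.5 in CP_0, 27.8 ± 1.4 in CP_14 and 26.1 ± 1.7 in CC.

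**Figure D1:**
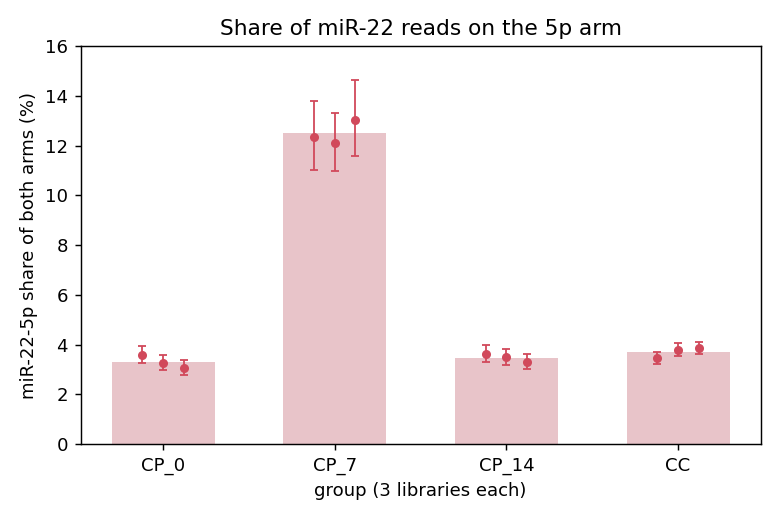
Share of miR-22 reads on the 5p arm (%, vertical axis) in each library, by group. Points are libraries with 95% Wilson intervals and bars are group means of 3 libraries; the CP_7 libraries stand at 12.1% to 13.0% and the other 9 at 3.05% to 3.86%.

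Since both arms are read in the same library, their ratio depends neither on depth nor on a composition factor. It was tested with limma on log2(5p/3p reads) over all miRNAs listed with both arms and a mean of at least 10 reads of each. The log2 ratio of miR-22 rose by 2.06 in the first 7 days (standard error 0.15, adjusted p = 7.46e-05 by limma). In the next 7 days it fell by 1.99 (standard error 0.12, adjusted p = 4.96e-05 by limma). The ratio was also lower in CC than in CP_7, by a log2 difference of -1.90 (standard error 0.12, adjusted p = 3.92e-05 by limma). These values ranged from 2.01 to 2.13, from -2.02 to -1.95 and from -1.93 to -1.84 when each library was left out, and each stayed called. All of these differences rest on the same CP_7 libraries, and an effect of library preparation on the arm ratio was not tested.

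Between the groups other than CP_7 no difference of the arm ratio was called. CP_14 differed from CP_0 by 0.075 (95% interval -0.30 to 0.45, adjusted p = 0.69 by limma). CC differed from CP_14 by 0.093 (95% interval -0.25 to 0.43, adjusted p = 0.53 by limma) and from CP_0 by 0.17 (95% interval -0.22 to 0.56, adjusted p = 0.48 by limma).

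Changes of arm ratio were frequent among the other miRNAs, so a call by itself says little about miR-22. Of 36 names listed with both arms, 17 could be tested between CP_7 and CP_0, and 11 of these were called (64.7%). The shares called were 12 of 16 (75%) for CP_14 against CP_7, 11 of 18 (61.1%) for CC against CP_7, 12 of 19 (63.2%) for CC against CP_14, 6 of 17 (35.3%) for CP_14 against CP_0 and 2 of 18 (11.1%) for CC against CP_0. By size, the change of miR-22 was in place 4 of 17 from day 0 to day 7, in place 3 of 16 from day 7 to day 14 and in place 5 of 18 between CC and CP_7. It was the smallest of 19 between CC and CP_14 and the smallest of 17 between CP_14 and CP_0.

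The pairs with the largest changes at day 7 did not move in a common direction. The log2 ratio of 5p to 3p changed by -3.52 for miR-27a (standard error 0.19, adjusted p = 2.32e-05 by limma), whose 5p arm went from 2098 reads on average to 108 while its 3p arm went from 14664 to 8704. miR-331 changed by 2.19 (adjusted p = 0.00050 by limma) and miR-7857 by -1.94 (adjusted p = 0.0017 by limma), both at under 110 reads an arm on average. For miR-9 (-2.13, adjusted p = 0.062 by limma) and miR-17 (1.71, adjusted p = 0.090 by limma) the change was not called. From day 7 to day 14, the other large changes were those of miR-23b (-3.45, adjusted p = 7.04e-05 by limma), with 3.67 reads of its 5p arm on average in CP_14, miR-7857 (2.46, adjusted p = 0.0011 by limma), miR-27a (1.8, adjusted p = 0.00035 by limma) and miR-331 (-1.68, adjusted p = 0.0016 by limma). miR-9 changed by 1.40 (adjusted p = 0.19 by limma) and was not called. Over the 16 pairs other than miR-22 the change at day 7 was towards the arm with fewer reads in CP_0 in 9, called or not, with a median log2 change of 0.99. Of the 11 called pairs, miR-22 among them, 8 moved towards that arm and 3 away from it. From day 7 to day 14, 8 of the 12 called pairs, again with miR-22, moved towards the arm with more reads in CP_7, and 4 away from it.

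**Figure D2:**
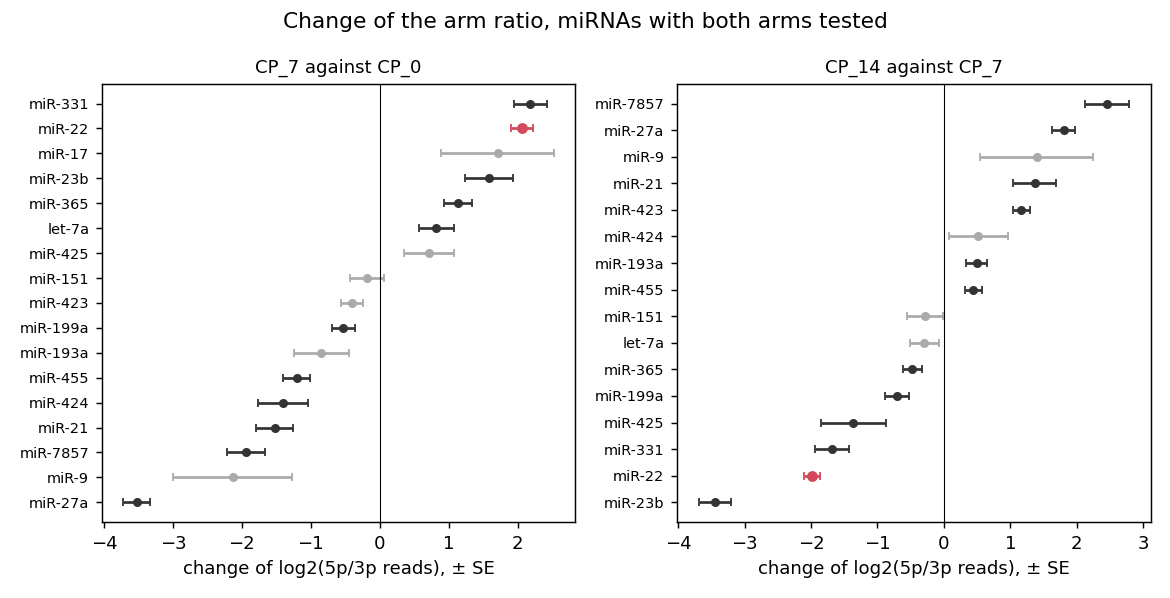
Change of log2(5p/3p reads) with its standard error (horizontal axis) for each miRNA with both arms tested, for CP_7 against CP_0 (17 pairs) and CP_14 against CP_7 (16 pairs). Red is miR-22, black are other called pairs and grey pairs that were not called; miR-22 stands at 2.06 and -1.99.

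After TMM normalization the 3p arm carried the larger part of this change, and with library size only the 5p arm did. As deposited, miR-22-3p stood at 3822, 3181 and 3274 RPM in CP_0 and at 2445, 2590.0 and 3005 RPM in CP_7. It stood at 3863, 3848 and 3526 RPM in CP_14 and at 1883, 1967 and 2195 RPM in CC. On this scale the CC libraries were the lowest and those of CP_7 the next, while CP_0 and CP_14 overlapped. After TMM normalization over the 12 libraries the CP_7 values were 1236, 1537.5 and 1437. They were 4117, 3757 and 3823 in CP_0 and 3778, 3758 and 3772 in CP_14, and chondrocytes had 3368, 3285 and 3374. The CP_7 libraries were then the lowest, below those of CC. Its place by level among the 475 names with a cattle prefix, which no scaling can change, was 17 in each CP_0 library, 30 to 33 in CP_7, 16 or 17 in CP_14 and 19 in each CC library.

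In CP_7 the log2 level of miR-22-3p was lower than in CP_0, by -1.43 (standard error 0.079, adjusted p = 6.08e-06 by limma). In CP_14 it was higher than in CP_7, by 1.35 (standard error 0.073, adjusted p = 9.61e-06 by limma). The miRNAs called in these comparisons were 157 of 246 tested (63.8%) and 130 of 246 (52.8%), and groups without overlap, as those of miR-22-3p were, made up 67.9% and 62.2% of the tests. Both changes of miR-22-3p kept their direction and their call with every other scaling, but with library size only they were -0.35 and 0.49. Under that scaling the median of all miRNAs moved to 1.12 and -0.84, so that relative to the median miR-22-3p changed by -1.48 and 1.32, against -1.50 and 1.36 with TMM. Leaving out each library gave -1.68 to -1.39 and 1.34 to 1.50.

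Over the whole 14 days the level of miR-22-3p differed by -0.029 (95% interval -0.16 to 0.10, adjusted p = 0.69 by limma), in a comparison where 115 of 250 miRNAs were called (46%). Thus the neighbours CP_0 and CP_14, the top of the order after TMM normalization, did not differ beyond their spread. Their sign changed with library size only (0.13) and without CP_0 replicate 1 (0.017), both uncalled, and with upper-quartile factors the difference was -0.28 and called (adjusted p = 0.032 by limma).

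Chondrocytes came next in the order. miR-22-3p was lower in CC than in CP_14 by a log2 difference of -0.18 (standard error 0.050, adjusted p = 0.0087 by limma), where 206 of 276 miRNAs were called (74.6%), and lower than in CP_0 by -0.35 (standard error 0.036, adjusted p = 0.00036 by limma), where 145 of 260 were called (55.8%). The small difference from CP_14 did not hold across scalings. It was -0.90 with library size only, -0.0080 and uncalled with upper-quartile factors, and 0.16 and called in the opposite direction (adjusted p = 0.032 by limma) when the reads of miR-21-5p were left out of the totals. The difference from CP_0 kept its sign throughout but was not called with the latter (-0.084, adjusted p = 0.36 by limma).

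Against the lowest group, CP_7, miR-22-3p in CC was higher by 0.98 on the log2 scale (standard error 0.066, adjusted p = 1.50e-05 by limma), in a comparison with 186 of 276 miRNAs called (67.4%). The value was 1.57 without CP_7 replicate 2. With library size only it turned to -0.41 and was called in that direction (adjusted p = 0.0075 by limma). The median of all miRNAs was then -1.44, and relative to it miR-22-3p was higher in CC by 1.03.

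**Figure D3:**
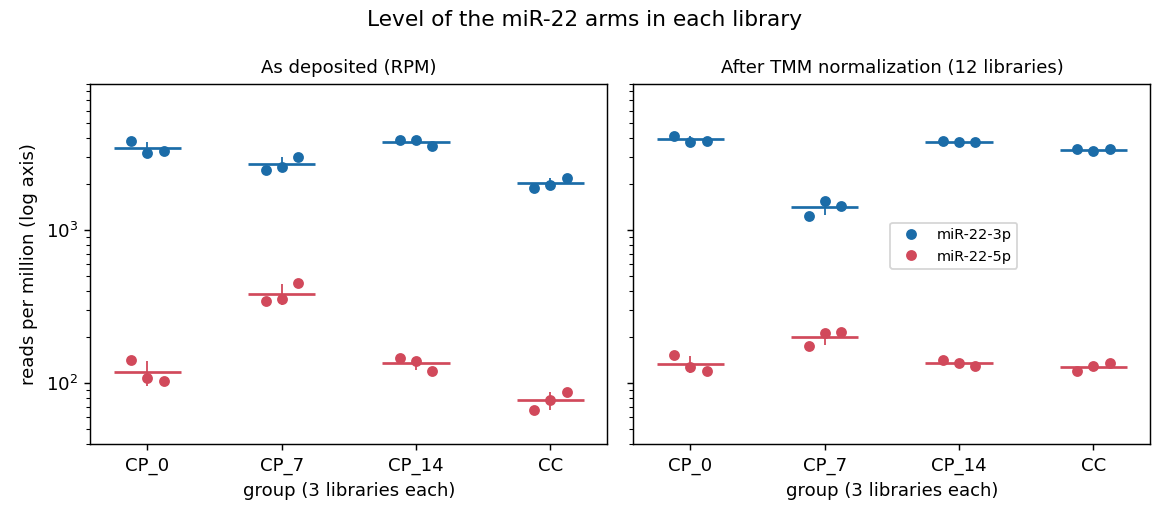
Level of miR-22-3p (blue) and miR-22-5p (red) in each of the 12 libraries on a log axis, as deposited (left, RPM) and after TMM normalization (right). Points are libraries, horizontal lines group means and vertical lines ± 1 SD (n = 3); the 5p arm is highest in CP_7 on both scales, and the 3p arm is lowest in CC on the left and in CP_7 on the right.

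The 5p arm moved against its partner. As deposited, miR-22-5p stood at 143, 108 and 103 RPM in CP_0, 344, 357 and 450.5 RPM in CP_7, 145, 139.5 and 120.3 RPM in CP_14 and 67.3, 77.6 and 88.2 RPM in CC. These values rest on 243 to 368 reads in CP_7, 375 to 442 in CP_0, 406 to 465 in CP_14 and 690.0 to 879 in CC. After TMM normalization they were 154, 127 and 120.4 in CP_0, 174, 212 and 215 in CP_7, 142, 136 and 129 in CP_14 and 120.3, 129.6 and 136 in CC. On both scales each CP_7 library was above all others, and after TMM normalization the other 3 groups overlapped. By level, miR-22-5p was in place 68 to 75 among the names with a cattle prefix in CP_7, against 82 to 88 in CP_0, 89 to 91 in CP_14 and 94 to 98 in CC.

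The log2 level of miR-22-5p was higher in CP_7 than in CP_0 by 0.63 (standard error 0.14, adjusted p = 0.0055 by limma), a call that was lost without CP_7 replicate 2 (0.40, adjusted p = 0.067 by limma) and with upper-quartile factors (0.29, adjusted p = 0.092 by limma). In CP_14 it was lower than in CP_7, by -0.63 (standard error 0.11, adjusted p = 0.0028 by limma), and this stayed called with every library left out (-0.65 to -0.50) and under every scaling. With library size only these changes were 1.70 and -1.49, and relative to the median of all miRNAs they were then 0.58 and -0.66, against 0.56 and -0.62 with TMM.

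In CC, miR-22-5p was lower than in CP_7 by a log2 difference of -0.91 (standard error 0.11, adjusted p = 0.00038 by limma). This value moved to -0.62 without CP_7 replicate 1, no longer called (adjusted p = 0.097 by limma), to -0.34 without CP_7 replicate 2 and to -0.61 without CP_7 replicate 3, and was -2.29 with library size only. The order of the other 3 groups was not resolved by TMM values. CC differed from CP_14 by -0.087 (95% interval -0.30 to 0.12, adjusted p = 0.40 by limma) and from CP_0 by -0.18 (95% interval -0.42 to 0.057, adjusted p = 0.16 by limma), and CP_14 differed from CP_0 by 0.045 (95% interval -0.23 to 0.32, adjusted p = 0.77 by limma). With library size only CC was lower than CP_14 by -0.79 and lower than CP_0 by -0.59, both called.

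**Figure D4:**
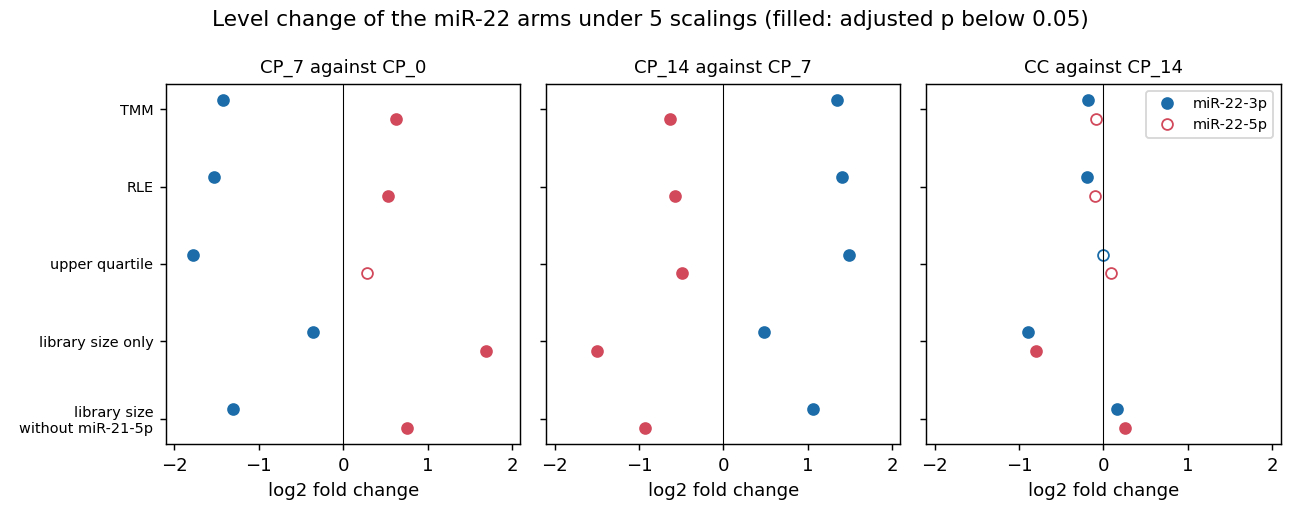
Log2 fold change of miR-22-3p (blue) and miR-22-5p (red) under 5 scalings of the same reads, for CP_7 against CP_0, CP_14 against CP_7 and CC against CP_14. Filled points have an adjusted p below 0.05 by limma; around day 7 the arms keep opposite signs under all 5, while for CC against CP_14 the 3p arm ranges from -0.90 to 0.16.

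Arms called in opposite directions were not particular to miR-22. At day 7 they were found for 4 of the 16 miRNAs with both arms in the level test, namely miR-22, miR-23b, miR-27a and miR-331, and from day 7 to day 14 for 3 of 16, namely miR-22, miR-27a and miR-7857. The latter comparison shares its CP_7 libraries with the former. In CC against CP_7 they were found for 6 of 19, miR-22 among them, and the remaining comparisons had 3, 1 and 1 such miRNAs without miR-22.

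Profiles over the 12 libraries were compared by the root mean square difference of log2(TMM-normalized RPM + 1), each miRNA centred on its own mean, over the 170 cattle-named miRNAs with a mean of at least 50 reads. Nearest to miR-22-3p was miR-450a at 0.13, followed by miR-532 at 0.16, miR-28 at 0.17, miR-192 at 0.21 and miR-24-3p at 0.21, where the median over the 170 was 0.78. Mean TMM-normalized levels of miR-450a were 265, 94.0, 235 and 195 in CP_0, CP_7, CP_14 and CC, and those of miR-532 were 920.1, 331, 788 and 943. All 5 were lowest in CP_7 on this scale, which largely follows from choosing them by nearness to miR-22-3p in the same libraries.

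Nearest to miR-22-5p was miR-29a, a repressor of collagen messages, at 0.17. It was followed by let-7i at 0.22, miR-2284x at 0.24, let-7a-5p at 0.24 and miR-15b at 0.25, with a median of 0.69. Mean TMM-normalized levels of miR-29a were 1155, 2152, 1273 and 1110.0 in the same order of groups. By group mean all 5 were highest in CP_7, miR-15b by little (54.1 against 51.1 in CP_0). This again largely follows from how they were chosen. The partner arm was far from both, at 0.86. Of the 170 miRNAs, 97 were nearer to miR-22-3p than its own 5p arm was, and 117 were nearer to miR-22-5p than the 3p arm. These distances are a description of 12 libraries that share 4 group means.

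**Figure D5:**
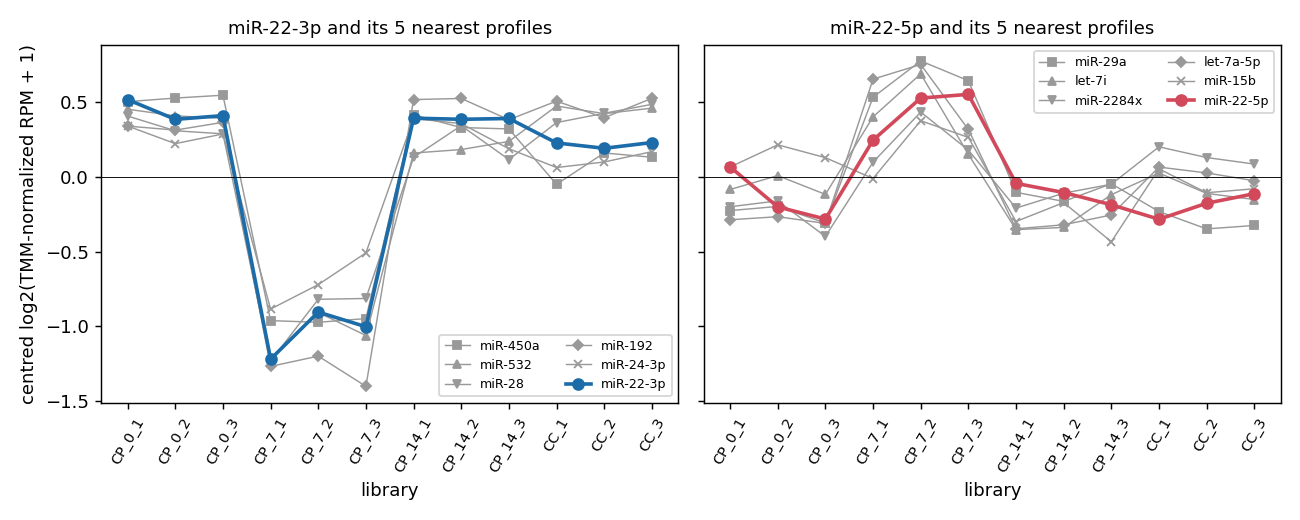
Centred log2(TMM-normalized RPM + 1) of miR-22-3p (left, blue) and miR-22-5p (right, red) in the 12 libraries, each with its 5 nearest miRNAs in grey. The profiles on the left dip in the CP_7 libraries and those on the right peak there, less evenly for miR-15b and miR-2284x.

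miRNAs that share the target HDAC4 with miR-22-3p were followed as a list. The names of a family, such as miR-29, can share reads, and how these were counted is not given in the sources. HDAC4 is repressed in other systems by 9 listed miRNAs, and all 9 passed the filter on low reads in both comparisons with CP_7. Of these, miR-200a had 0, 1 and 1 reads in the CP_7 libraries against 35 to 77 in CP_0 and 74 to 80 in CP_14, and passed only through the group where it is high. Its share of the reads was 16.7 times as high in CP_0 as in CP_7 (95% exact interval 4.55 to 139, counting error only, from 153 and 2 reads). The 153 reads were 35, 41 and 77 by replicate, a spread that this interval leaves out. The deeper CC libraries held 76 to 82 reads of it. miR-29c, with 7 to 10 reads in the CP_0 libraries, passed between CP_7 and CP_0 only through CP_7. Both are left out of the counts in those comparisons. The shares over all miRNAs set beside these counts still include those that passed through a single group.

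Of the remaining 7 at day 7, 4 were higher, where 35.8% of all 246 miRNAs were, namely miR-1 (2.04), miR-155 (2.01), miR-29b (1.24) and miR-29a (0.95). miR-140 (-1.03), a cartilage miRNA, was lower, where 28% of all were. From day 7 to day 14, 5 of 8 were lower, where 28.5% of all were, namely miR-155 (-1.50), miR-365-3p (-1.11), miR-29a (-0.83), miR-1 (-0.73) and miR-29b (-0.68). miR-140 (0.87) was higher, where 24.4% of all were. Both comparisons share the CP_7 libraries. With library size only, 5 of the 7 were higher at day 7, where 61.8% of all were, and 0 were lower, where 8.13% of all were. From day 7 to day 14, 6 of the 8 were then lower, where 56.1% of all were, and 0 were higher, where 10.6% of all were. miR-140 was then called in neither comparison.

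Markers of other cells moved with some of these groups. The summed level of 4 skeletal muscle miRNAs (miR-1, miR-133a, miR-133b, miR-206) was 4536 to 6633 RPM in CP_7, against 535 to 683 in CP_0, 1685 to 1756 in CP_14 and 719 to 752 in CC, and none of the 4 was at 0 throughout a group. Most of the muscle sum was miR-1, with 3371, 6427 and 2233 reads in the CP_7 libraries. miR-206 had 263, 7 and 0 reads there and 1, 1 and 52 in CP_0. At day 7 miR-206 was not called (adjusted p = 0.52 by limma), while miR-1, miR-133a and miR-133b were called higher. miR-1 and miR-206 are also in the HDAC4 list, and miR-200a is in both that list and the epithelial markers. The muscle sum was highest in CP_7, as the 5p share of miR-22 was, and its part in the result was not tested. The 6 epithelial miRNAs that are listed summed to 3.90 to 16.7 RPM in CP_7, against 27.3 to 41.0 in CP_0, 35.4 to 46.2 in CP_14 and 12.6 to 15.5 in CC. Reads of miR-200a were 76 to 82 in CC and 74 to 80 in CP_14, although the CC libraries were deeper. Why these reads did not follow depth was not tested. In CP_7, 2 of the 6 epithelial miRNAs, miR-141 and miR-429, were at 0 in every library. They had only 0 to 8 reads in the CP_0 libraries and 0 to 9 in those of CP_14. The lowest CP_7 sum, 3.90 RPM in replicate 1, is the value of 3 reads. The part of the epithelial miRNAs was not tested either. The 3 cartilage miRNAs (miR-140 and both arms of miR-455) summed to 9043 to 11415 RPM as deposited over the 12 libraries, and each of the 3 had reads in every library. After TMM normalization all 3 were higher in CC than in CP_0, by 0.53 for miR-140 (adjusted p = 6.19e-05 by limma), 1.11 for miR-455-5p (adjusted p = 1.97e-05 by limma) and 0.81 for miR-455-3p (adjusted p = 0.0041 by limma). With library size only the value for miR-140 was 0.12 and not called (adjusted p = 0.24 by limma).

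Single libraries also differed from others of their group. CP_0 replicate 3 held 6933 reads of miR-451, an erythroid miRNA, against 27 and 29 in the other CP_0 libraries. In this it was like the CP_14 libraries, with 6039 to 6431, and those of CC, with 6119 to 6619. The CP_7 libraries held 2 to 17. Reads of miR-486 were 8312 in CP_0 replicate 3, 7363 to 7992 in CP_14 and 7706 to 8345 in CC. The other CP_0 libraries and those of CP_7 held 7 to 133. The 6 blood miRNAs summed to 23.4 to 160 RPM in CP_7, where 2 were at 0, against 14.4 to 4220.2 in CP_0, 3504 to 5194 in CP_14, where 1 was at 0, and 1393 to 1466 in CC. The sums were lower in CC than in CP_14, but the reads of miR-451 and miR-486 were near equal in both, although the CC libraries were deeper. Why the reads did not follow depth was not tested, nor was the part of the blood miRNAs in the results. Without CP_0 replicate 3 the change from day 0 to day 7 was -1.47 for miR-22-3p and 0.54 for miR-22-5p, both called. CP_7 replicate 3 held 1658 reads of the endothelial miR-126-3p, against 143 and 333 in the other CP_7 libraries. The endothelial list of both miR-126 arms summed to 188 to 3083 RPM in CP_7 and to 28.4 to 83.6 RPM in the other groups. Without that library the changes were -1.54 and 0.49, both called.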

How the data were processed

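Per the labels, small RNA libraries were made with a NEBNext kit from 3 samples of each of 4 groups. The authors deposited 1 RPM value per listed miRNA and library, headed tpm, without division by length. The submitters' processing notes name CASAVA, bcl2fastq 1.8.4 and Bowtie. The trimming, the counting, the genome build and the miRNA database version were not given in the sources used.

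Reads were recovered by dividing by the value of 1 read, 0.0975 to 1.85 RPM, and 100% of the values were whole within 0.01 read. A miRNA at 0 may be present at up to 3 reads, 0.29 to 5.56 RPM. Replicates differed beyond counting noise (chi-square per degree of freedom at least 4.92), but unevenly. The lowest value was that of CP_14 replicates 1 and 2, which gave 252 and 213 against replicate 3. All other pairs of replicates were at 25.6 or more. Why these 2 libraries were so alike was not tested. Levels were tested with limma 3.58.1 (intensity trend, pseudocount 1 RPM) in R 4.3.3 after TMM and edgeR 4.0.16's filterByExpr (minimum count 10), arm ratios with limma on log2(reads + 0.5), all two-sided with Benjamini-Hochberg adjustment over all features tested. The fits were also run on simulated reads, with a fixed spread that was not taken from these libraries, and no result here rests on them. On the recovered reads, DESeq2 1.42.0 and the quasi-likelihood test of edgeR were alternatives, as were other scalings, pseudocounts and filters, the replicate block and leaving out each library. Named miRNAs were the members, miR-3600, miR-21-5p, the 5 nearest profiles per arm, the 5 largest other arm changes in both comparisons with CP_7 at the centre and the called members of the HDAC4 list. Another list fixed with it is not reported here. Members and lists were chosen with earlier results of these data known, which the adjusted p-values do not allow for.

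Replicate numbers were not taken to pair libraries in any of the main fits. Between CC and CP_7 the deviations of same-numbered libraries from their group means correlated weakly over 284 miRNAs, at 0.13, 0.12 and 0.17. The labels name no such pairing, and with the block no call of miR-22 changed there.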

Additional observations from a re-analysis of the deposited data

How the results depend on the processing

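The alternatives changed no call of the arm ratio except by the exact two-sided permutation test on the log2 ratios, whose smallest p with 3 libraries against 3 is 0.1. It gave that p for the changes of 2.06 (CP_7 against CP_0), -1.99 (CP_14 against CP_7) and -1.90 (CC against CP_7). For the levels, upper-quartile factors gave 0.29 (no longer called) for miR-22-5p in CP_7 against CP_0, -0.0080 (no longer called) for miR-22-3p and 0.085 (opposite sign, uncalled) for miR-22-5p in CC against CP_14, and -0.28 (now called) for miR-22-3p and -0.21 (opposite sign, uncalled) for miR-22-5p in CP_14 against CP_0. Library size only gave -0.79 (now called) for miR-22-5p in CC against CP_14, 0.13 (opposite sign, uncalled) for miR-22-3p in CP_14 against CP_0, -0.59 (now called) for miR-22-5p in CC against CP_0 and -0.41 (opposite sign, called) for miR-22-3p in CC against CP_7. Library size without miR-21-5p gave 0.16 and 0.26 (opposite sign, called) for miR-22-3p and miR-22-5p in CC against CP_14, -0.17 (opposite sign, uncalled) for miR-22-5p in CP_14 against CP_0, and -0.084 (no longer called) and 0.085 (opposite sign, uncalled) for miR-22-3p and miR-22-5p in CC against CP_0. With all 12 libraries in one fit miR-22-3p in CC against CP_14 was -0.17 and no longer called (adjusted p = 0.076 by limma). Why these scalings differ was not tested.

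With the replicate block, miR-22-3p in CC against CP_14 kept its value of -0.18 and lost its call (adjusted p = 0.0502 by limma), and no other call of miR-22 changed. The libraries share only a number in that comparison, where 1 of 6 correlated best with its own number, against 6 of 6 between CC and CP_7. Leaving out each library gave 0.40 to 0.73 for miR-22-5p in CP_7 against CP_0, -0.069 to 0.017 for miR-22-3p and -0.038 to 0.15 for miR-22-5p in CP_14 against CP_0, and -0.95 to -0.34 for miR-22-5p in CC against CP_7. The sign turned without CP_0 replicate 3 (-0.038) or CP_14 replicate 1 (-0.019) for miR-22-5p over 14 days. Other pseudocounts, no filter, edgeR, DESeq2, RLE factors and TMM without miR-3600 changed no sign or call of miR-22. The split of all calls moved with library size only, to 152 higher and 20 lower from 88 and 69 in CP_7 against CP_0 and to 26 and 138 from 60 and 70 in CP_14 against CP_7. It moved to 40 and 163 from 104 and 102 in CC against CP_14, to 76 and 33 from 62 and 53 in CP_14 against CP_0, to 30 and 112 from 78 and 67 in CC against CP_0 and to 20 and 191 from 80 and 106 in CC against CP_7. Upper-quartile factors gave 65 and 87 in CP_7 against CP_0, 50 and 91 in CP_14 against CP_0 and 116 and 77 in CC against CP_7. Leaving miR-21-5p out of the totals gave 43 and 91 in CP_14 against CP_7, 138 and 70 in CC against CP_14, 49 and 79 in CP_14 against CP_0 and 110 and 38 in CC against CP_0. The 5p arm rested on 243 to 368 reads in CP_7.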
